A study of Mus musculus with 2 samples.

Results

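Mrc1-positive macrophages without Gpnmb were 1156 of the 19478 cells kept from injured mouse kidneys, 489 in the control library and 667 in the haplodeficient library. They were chosen by their own counts of unique molecular identifiers (UMIs, 1 per captured transcript): at least 10 UMIs of C1qa, C1qb and C1qc together, at least 1 of Mrc1, and 0 of Gpnmb, Cd3e, Slc12a1 and Cdh5. The levels of these genes in the members are therefore set by the choice and are given only as a description. Kidneys were taken on day 14 after the artery of 1 kidney had been clamped and released, and mice of both groups received 4 tamoxifen injections after the clamping. Control mice were Cre-. Haplodeficient mice were Cdh5-CreERT2; Phd3f/+, so that tamoxifen switches on a Cre driven from the Cdh5 promoter (an endothelial cell-junction gene), which can remove 1 allele of Phd3 (Egln3, an oxygen-dependent prolyl hydroxylase). The macrophages described here were therefore not the cells in which the Cre is designed to act. The labels do not say whether control mice carried the floxed allele, nor the age or number of animals behind a library.

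Mrc1 encodes the mannose receptor CD206, an endocytic lectin of tissue macrophages that binds mannose-rich glycoproteins and collagen fragments and is widely used to mark macrophages in a repair-associated state. Gpnmb is a transmembrane glycoprotein of macrophages loaded with lipid and lysosomal cargo. In the kidney, macrophages of the first kind are known to lie in the interstitium and along vessels, and they secrete chemokines that draw monocytes and lymphocytes. Ccl2, Ccl7, Ccl8 and Ccl12 are the mouse monocyte chemoattractant proteins. Ccl2, Ccl7 and Ccl12 act mainly on Ccr2 of monocytes, and other receptors bind Ccl7 and Ccl8.

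There was 1 library per group, so no test between groups was possible, no p-value is given, and differences between libraries have no replicate check. Each interval in parentheses is a 95% interval for counting error only. Levels are CPM, the UMIs of a gene summed over the members and scaled to the usual fixed total. Counts came from transcript 3′ ends and were not scaled to length, so that levels are compared within a gene and not between genes. A gene passed the size rule when its log2 ratio, taken after adding 5 CPM to each side, was at least 1 in size and the 2 Poisson intervals did not overlap. The rule was applied to genes whose mean over the libraries reached 50 CPM and whose UMIs reached 30. Of 3100 such genes, 18 (0.581%) passed as higher in haplodeficient members and 38 (1.23%) as lower.

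The libraries held 134190236 and 114668145 UMIs, and 9452 control and 10026 haplodeficient barcodes were kept as cells. Cells of the control library had a higher median mitochondrial share, 10.2% against 2.72%, and 574 of its barcodes were removed by the 50% mitochondrial limit against 30 of the other library. Kept sets of the 2 libraries shared 28 barcodes. Members were alike in depth, with medians of 4975 UMIs and 1794 genes in control and 5381 UMIs and 1882 genes in haplodeficient. Their median mitochondrial share was 3.67% and 1.98%.

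The members carried the genes of macrophages. Adgre1, which encodes F4/80, stood at 304 CPM in control and 297 CPM in haplodeficient members, and Csf1r, the receptor for the macrophage growth factor, at 548 and 494 CPM. Genes on the list of resident and perivascular macrophages were split. Several defining ones had few UMIs. Lyve1 had 1 UMI in all control members and 2 UMIs in all haplodeficient members, Timd4 had 3 and 0, and the haemoglobin scavenger receptor Cd163 had 20 and 26. Others were abundant, among them the transcription factor Maf at 259 and 217 CPM and the selenium transport protein Selenop at 878 and 751 CPM. In all, 9 of the 16 genes on that list were abundant enough for the size rule, and none of them passed it between libraries. Transcripts of MHC class II, which presents peptides to helper T cells, were abundant, with Cd74 at 15200 and 16216 CPM. The 9 genes of the dendritic cell list summed to 60.1 and 77.5 CPM. Among them Flt3 was at 0.575 and 1.04 CPM and Zbtb46 at 6.04 and 2.92 CPM. Batf3 had 152 and 291 UMIs and was the only 1 of the list abundant enough for the size rule. Genes on the list of monocytes were split as well. Ly6c2, a gene of newly recruited monocytes, was at 0.575 and 13.6 CPM. Yet 8 of the 12 genes on that list were abundant enough for the size rule. Among these were Fn1 with 1191 and 1665 UMIs, Ccr2 with 987 and 1296, and Plac8 with 260 and 502.

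The share of members among kept cells was 5.17% (4.74 to 5.64%) in control and 6.65% (6.17 to 7.16%) in haplodeficient. With cells above 25% mitochondrial UMIs left out, the control share was 6.45% and the haplodeficient share 6.73%, so the gap between libraries moved with that limit. Among all C1q-high cells that passed the exclusions, 851 and 1411, members were 57.5% (54.1 to 60.8%) among control cells and 47.3% (44.6 to 49.9%) among haplodeficient cells. The remainder were Gpnmb-positive cells, 141 and 329, and cells with neither Mrc1 nor Gpnmb, 221 and 415. Before the exclusions, 936 and 1623 cells were C1q-high. A UMI of Slc12a1, the salt transporter of the thick ascending limb, was in 76 and 142 of them, one of the endothelial gene Cdh5 in 8 and 58, and one of the T-cell gene Cd3e in 2 and 33.

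The Mrc1 count of a member was low. Its median was 4 UMIs in control and 3 in haplodeficient, 99 members (20.2%) and 155 members (23.2%) had only 1 UMI, and the highest counts were 72 and 55. Members with 1 UMI of Mrc1 had Ccl8 at 404 CPM in control and 341 CPM in haplodeficient, and Ccl12 at 487 and 865 CPM. C1q-high cells just outside, with no Mrc1 and no Gpnmb, had Ccl8 at 87.5 and 136 CPM and Ccl12 at 203 and 477 CPM. At the Gpnmb limit, Mrc1-positive cells with 1 UMI of Gpnmb numbered 24 and 22, and their Ccl8 was 653 and 158 CPM. At the C1q limit, 11 and 7 members had 10 to 12 UMIs, and 5 and 6 cells with 7 to 9 UMIs would otherwise have qualified.

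Ccl2, Ccl7, Ccl11, Ccl12 and Ccl8 lie next to each other on the plus strand of chromosome 11 (GRCm38, the assembly also called mm10). Ccl2 spans 82035571 to 82037453, Ccl7 82045712 to 82047525, Ccl11 82057823 to 82062955, Ccl12 82101845 to 82103400 and Ccl8 82115185 to 82116799, and all are annotated as protein coding. The 250 bases before the starts of Ccl12 and Ccl8, the 2 genes of this cluster used as markers of these cells, are shown because their expression differed in pattern although their genes are neighbours. Both are RefSeq sequences of GRCm38.p6, written 5′ to 3′ on the plus strand, chr11:82101595-82101844 for Ccl12 and chr11:82114935-82115184 for Ccl8. Capitals mark the TATA box (TATAAA) and, in Ccl8, a reverse-strand match to the PU.1 core GAGGAAG.
Ccl12: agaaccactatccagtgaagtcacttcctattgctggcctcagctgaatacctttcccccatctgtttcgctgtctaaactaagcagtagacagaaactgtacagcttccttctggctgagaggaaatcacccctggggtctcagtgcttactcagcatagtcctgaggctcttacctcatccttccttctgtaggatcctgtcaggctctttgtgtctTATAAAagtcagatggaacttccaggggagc
Ccl8: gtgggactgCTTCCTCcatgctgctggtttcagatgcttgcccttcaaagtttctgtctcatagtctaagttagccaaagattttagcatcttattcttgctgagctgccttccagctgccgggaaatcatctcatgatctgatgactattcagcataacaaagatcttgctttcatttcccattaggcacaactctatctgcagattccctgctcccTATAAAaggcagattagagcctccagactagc
The TATA box began 31 bases before the start of Ccl12 and 32 before the start of Ccl8, and 12.4% of 32851 mouse promoters of the same length held those letters on either strand. PU.1 is the factor that defines the myeloid lineage, and its core as searched, present once in Ccl8, was in 10.6% of promoters. The Ccl12 window holds the shorter GAGGAA, so its lack of a match depends on the letters searched. Searched on both strands, neither window held the letters used for AP-1 (TGANTCA, in 6.75% of promoters), C/EBP (TTGCNNAA, 9.56%), the GAS element (TTCNNNGAA, 7.02%) or the hypoxia response core (ACGTG, 16.6%). The windows shared no run longer than 8 bases and 3 runs of that length. These were ggaaatca, which began 128 bases before each start, tcagcata, which began 98 bases before Ccl12 and 100 before Ccl8, and tataaaag at the TATA box. Ccl2 and Ccl7 are named only.

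Ccl12, Ccl7 and Ccl2 were each more than 2-fold higher in haplodeficient than in control members, while Ccl8 was higher by less. The list of CC chemokines had 13 genes, of which 9 were abundant enough for the size rule. These 3 passed it as higher and none passed as lower, against 0.581% higher over all genes. The median log2 ratio of the 9 genes was 0.63, against 0.01 over all 3100 genes.

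Ccl12 stood at 652 CPM (625 to 679) in control and 1393 CPM (1359 to 1426) in haplodeficient members, a ratio of 2.14 (2.04 to 2.24). It was found in 45.5% of control and 57.2% of haplodeficient members after each was thinned to 2000 UMIs, and in 0.217% and 1.07% of thick ascending limb cells, which serve as the background. The share of thinned members with Ccl12 was thus higher in the haplodeficient library. Before thinning, the median positive member there held 8 UMIs against 5, in members that were also slightly deeper (medians of 5381 against 4975 UMIs). Ccl7 was at 315 CPM (296 to 334) and 829 CPM (803 to 855), a ratio of 2.63 (2.46 to 2.82), and in 25.5% and 34.9% of thinned members. Ccl2, the best known monocyte attractant of injured kidney, was at 412 CPM (391 to 433) and 902 CPM (875 to 929), a ratio of 2.19 (2.06 to 2.33), and in 40.1% and 50.4% of thinned members.

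Ccl8 differed less between libraries than its neighbours. It was at 639 CPM (612 to 666) and 927 CPM (900 to 955), a ratio of 1.45 (1.38 to 1.53) that did not pass the size rule. The shares of thinned members with Ccl8 were close, 27.3% (23.4 to 31.6%) and 28.9% (25.4 to 32.6%), and in both libraries its UMIs sat in few cells. The 5% of members with most Ccl8 held 63.8% of its UMIs in control and 63.7% in haplodeficient, whereas for Ccl12 they held 33.2% and 33.6%. Single cells reached 164 and 173 UMIs of Ccl8.

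The same genes were set against the other C1q-high cells of each library. In Gpnmb-positive cells, Ccl12 was at 103 and 143 CPM and Ccl7 at 76.4 and 75.5 CPM, with library ratios of 1.39 (1.18 to 1.64) and 0.989 (0.811 to 1.21), both below those of the members. Ccl8 was at 328 and 114 CPM there, a ratio of 0.348 (0.309 to 0.391), opposite in direction to the members. In cells with neither Mrc1 nor Gpnmb, Ccl12 was at 203 and 477 CPM, Ccl7 at 65.5 and 175 CPM and Ccl2 at 132 and 346 CPM. Their library ratios of 2.35, 2.68 and 2.62 were of the size seen in the members, so the higher Ccl12, Ccl7 and Ccl2 of the haplodeficient library also held in C1q-high cells outside the members.

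**Figure D1:**
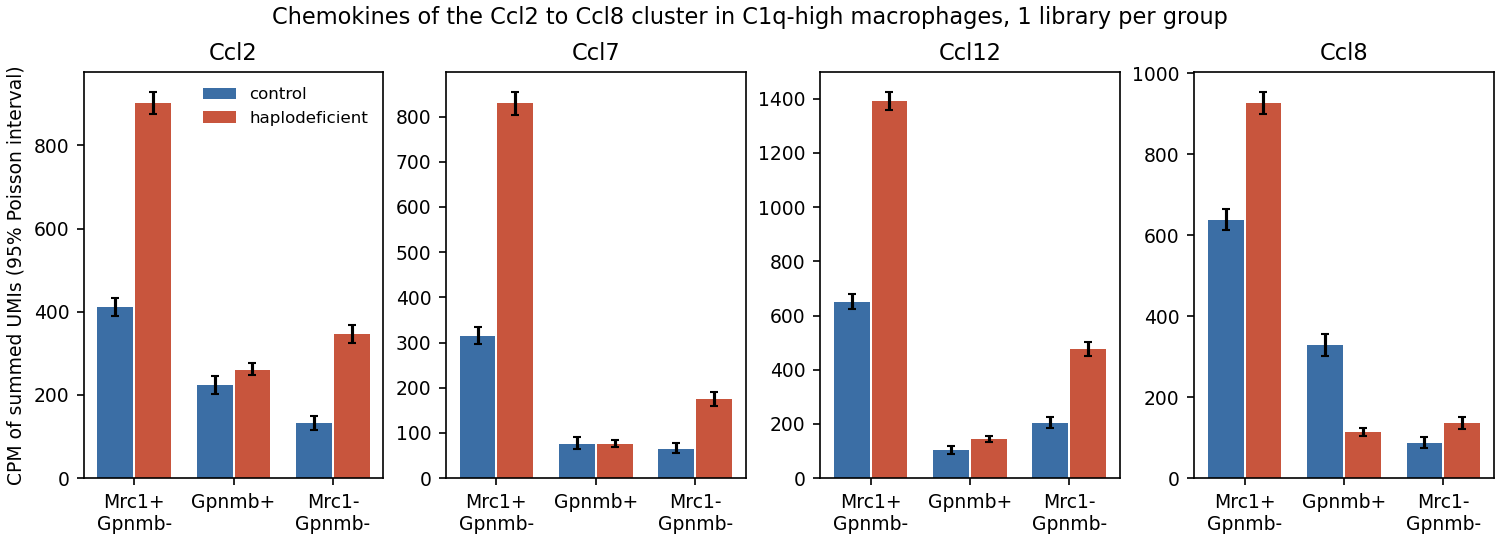
Bars give the CPM of summed UMIs of Ccl2, Ccl7, Ccl12 and Ccl8 in the 3 sets of C1q-high macrophages, control in blue and haplodeficient in red, with 95% Poisson intervals and 1 library per bar. The members (Mrc1+ Gpnmb-) have the tallest bars for each gene in both libraries, with Ccl12 at 652 and 1393 CPM, and Ccl8 is lower in the haplodeficient Gpnmb-positive cells, 114 against 328 CPM.

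Free RNA gave little of these UMIs. Barcodes of 1 to 100 UMIs had Ccl12 at 25.9 CPM in control and 139 CPM in haplodeficient, and Ccl8 at 23.7 and 125 CPM, each below the level in members, and the free RNA expected in the members came to at most 2.88% of their UMIs of these 4 genes. Ccl12, Ccl7 and Ccl2 kept ratios above 1 in all 12 alternatives that give a ratio. Their log2 ratios ranged from 0.92 to 1.17 for Ccl12, from 1.19 to 1.44 for Ccl7 and from 1.00 to 1.20 for Ccl2. Ccl12 was under the size rule in 2 of them, when cells were thinned before the choice of members and when UMIs were summed after thinning.

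The other CC chemokines of these cells differed less between libraries or went the other way. Ccl4 and Ccl3, chemokines made by activated macrophages, were at 1201 and 2297 CPM and at 424 and 659 CPM, with ratios of 1.91 (1.85 to 1.98) and 1.55 (1.46 to 1.65). Neither passed the size rule in the main analysis, but Ccl4 passed it as higher when the highest Scrublet scores were left out. Ccl6 and Ccl9, mouse chemokines that act through Ccr1, were lower in haplodeficient members, at 704 and 566 CPM and at 307 and 220 CPM, with ratios of 0.803 (0.76 to 0.849) and 0.717 (0.658 to 0.781). Ccl5, a chemokine made mainly by T and NK cells, was at 81.3 and 53.7 CPM, and 1% of members held 72.8% of its UMIs in control and 47.5% in haplodeficient. Its ratio of 0.66 (0.555 to 0.784) changed direction in 4 of 12 alternatives, so no direction is given for it. Ccl11, Ccl17, Ccl22 and Ccl24 each had at most 27 UMIs over the members of a library.

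Ccl2, Ccl7, Ccl8 and Ccl12 were only partly found in the same cells. After thinning to 2000 UMIs, 29.0% of 479 control and 23.2% of 633 haplodeficient members had no UMI of any of them, and 5.22% and 9.32% had all 4. Ccl7 went with Ccl2, being found in 46.4% and 54.2% of members with Ccl2 and in 11.5% and 15.3% of those without. Ccl12 was likewise in 62.5% and 75.5% of members with Ccl2 and in 34.1% and 38.5% of those without. Ccl8 was in 29.7% and 32.6% of members with Ccl2 and in 25.8% and 25.2% of those without, a smaller gap. The gap was wider for Ccl8 with Ccl7, at 35.2% and 39.8% of members with Ccl7 and 24.6% and 23.1% of those without, and with Ccl12, at 33.0% and 35.9% against 22.6% and 19.6%. These shares describe cells of 1 library each and carry no test.

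C1q-high cells without Gpnmb were also read by their Mrc1 count after thinning to 2000 UMIs, which puts every cell at the same depth. A cell with 0 UMIs after thinning can be a member whose Mrc1 UMIs were not drawn. From 0 UMIs of Mrc1 through 1 and 2 to 3 or more, Ccl7 was at 172, 289, 500 and 725 CPM in control and at 438, 917, 1029 and 1752 CPM in haplodeficient. Ccl12 was at 438, 1015, 1458 and 1228 CPM in control and at 1041, 1692, 2119 and 2694 CPM in haplodeficient. Higher Mrc1 thus went with higher Ccl7 and Ccl12 in both libraries, except that control Ccl12 was not higher at 3 or more than at 2. At every Mrc1 count both genes were higher in the haplodeficient library. Ccl8 was at 362, 395, 1367 and 1219 CPM in control and at 327, 636, 1710 and 2455 CPM in haplodeficient. Its Poisson intervals overlapped between libraries at 0 UMIs after thinning, whereas the C1q-high cells that had no Mrc1 before thinning had it at 87.5 and 136 CPM. Ccl4 did not follow Mrc1, at 1597, 1526, 1928 and 1868 CPM in control and 3234, 3633, 2800 and 3296 CPM in haplodeficient.

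**Figure D2:**
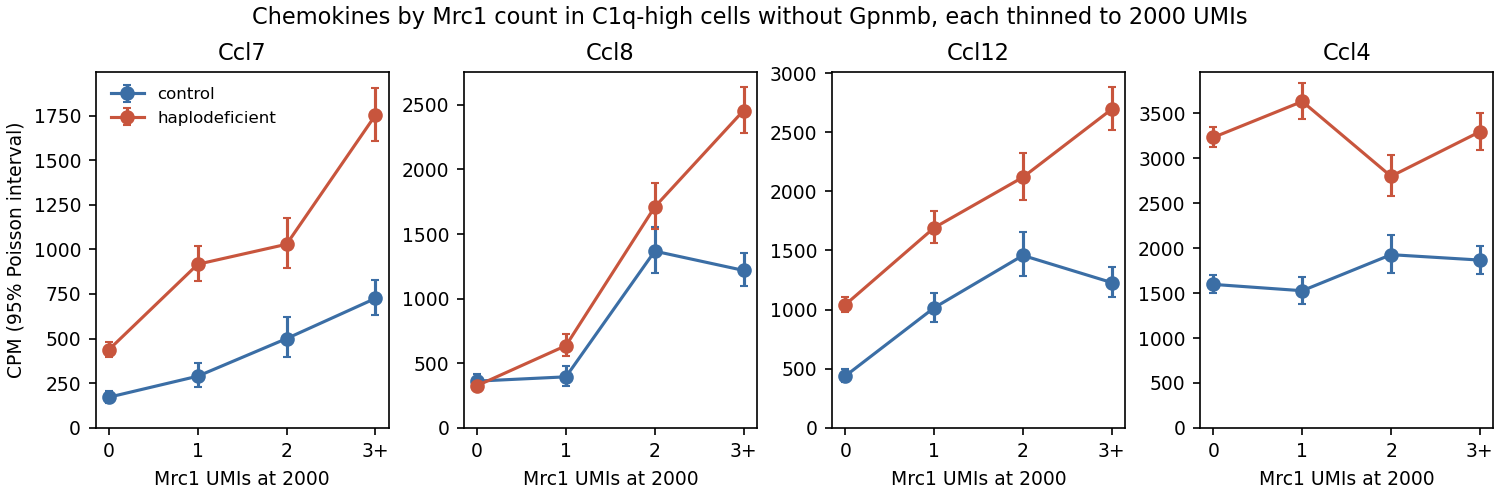
Points give the CPM of Ccl7, Ccl8, Ccl12 and Ccl4 (y axis, from 0) over C1q-high cells without Gpnmb, grouped by their Mrc1 UMIs after thinning to 2000 UMIs (x axis), with 95% Poisson intervals, control in blue and haplodeficient in red. Ccl7 goes from 172 to 725 CPM in control and from 438 to 1752 CPM in haplodeficient, while Ccl4 stays between 1526 and 1928 CPM and between 2800 and 3633 CPM.

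Of 13 CXC and other chemokines, 6 were abundant enough for the size rule, with a median log2 ratio of 0.74. Of these, 1 passed it as higher and none as lower, against 0.581% higher over all genes. Cxcl14, a chemokine of epithelia and macrophages, was the one that passed, at 83.3 CPM (74 to 93.5) in control and 199 CPM (187 to 212) in haplodeficient, a ratio of 2.39 (2.09 to 2.73). Its log2 ratio was 0.95, under the size rule, when cells were thinned before the choice of members. It was also higher in the haplodeficient library in Gpnmb-positive cells, at 221 and 595 CPM. Cxcl2, a neutrophil attractant, was at 1806 and 2792 CPM, which gave a ratio of 1.55 (1.5 to 1.59), and Pf4, a chemokine of platelets that tissue macrophages also make, at 249 and 463 CPM, which gave a ratio of 1.86 (1.72 to 2.02). Cxcl10, which draws T cells that bear Cxcr3, was at 47.1 and 89.6 CPM, with 1% of members holding 49.4% and 49.2% of its UMIs. Cxcl16, at once a chemokine for Cxcr6 and a scavenger receptor for oxidised lipid, was at 406 and 389 CPM, which gave a ratio of 0.958 (0.893 to 1.03).

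Of 10 chemokine receptors on the list, 4 were abundant enough in the members and none passed the size rule between libraries. Ccr2, the main receptor of Ccl2, Ccl7 and Ccl12, was at 284 CPM (266 to 302) and 271 CPM (256 to 286), a ratio of 0.954 (0.877 to 1.04). Cx3cr1, the fractalkine receptor, had a ratio of 0.985 (0.914 to 1.06). Ccr1, which binds Ccl3 and Ccl9 among others, was lower in haplodeficient members, at 64.4 and 48.4 CPM with a ratio of 0.752 (0.623 to 0.908). In Gpnmb-positive cells Ccr2 was lower, at 71.4 and 21.6 CPM.

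Scavenger receptors take up modified lipoproteins, cell debris and other polyanionic cargo. None of the 8 that were abundant enough, of 17 on the list, passed the size rule between libraries, and their median log2 ratio was 0.20. Msr1, the class A scavenger receptor, was lower in haplodeficient members, at 115 CPM (104 to 127) and 83.7 CPM (75.7 to 92.3), a ratio of 0.726 (0.631 to 0.836). Cd36, the receptor for oxidised lipoproteins and long-chain fatty acids, was higher, at 112 CPM (101 to 124) and 152 CPM (141 to 164), a ratio of 1.36 (1.2 to 1.54). Its log2 ratio, 0.42, was as low as 0.04 among the alternatives. Stab1, which clears altered extracellular matrix proteins, was at 144 and 164 CPM, which gave a ratio of 1.14 (1.02 to 1.28). Cd68, a lysosomal glycoprotein, was at 254 and 297 CPM, and Lrp1, an endocytic receptor for many ligands, at 90 and 105 CPM, each with a ratio of 1.17. The remaining eligible members of the list were Scarb2 at 58.9 and 74.7 CPM, Cd302 at 118 and 124 CPM, and Cxcl16.

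Scavenger receptors that mark other macrophages had few UMIs. Cd163 was at 5.75 and 5.43 CPM, Cd5l had at most 0.575 CPM, and Marco had 0 UMIs in control and 5 UMIs in haplodeficient members. Olr1, a receptor for oxidised low-density lipoprotein, was at 17 and 42.6 CPM, but 5% of members held 100% of its UMIs in control and 93.1% in haplodeficient.

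Lectins and Fc receptors bind sugars and antibody on what is taken up. Of 14 on the list, 13 were analysed and 10 were abundant enough. None passed the size rule between libraries, and the median log2 ratio was 0.11. Mgl2 and Clec10a, lectins for galactose and N-acetylgalactosamine that sit beside Mrc1 as markers of such macrophages, were at 456 and 553 CPM and at 46 and 61.2 CPM. Mgl2 had a ratio of 1.21 (1.14 to 1.29) and was found in 49.7% and 53.1% of thinned members. Clec12a, an inhibitory receptor for crystals released by dead cells, had the highest ratio of the list, 1.62 (1.46 to 1.81), at 142 and 230 CPM. Among the Fc receptors, Fcgr3 was lower in haplodeficient members, at 499 and 366 CPM with a ratio of 0.734 (0.686 to 0.784), Fcgr1 was at 203 and 246 CPM, and Fcgr4 was at 133 and 137 CPM. The inhibitory Fcgr2b was at 495 and 440 CPM, which gave a ratio of 0.889 (0.834 to 0.948).

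**Figure D3:**
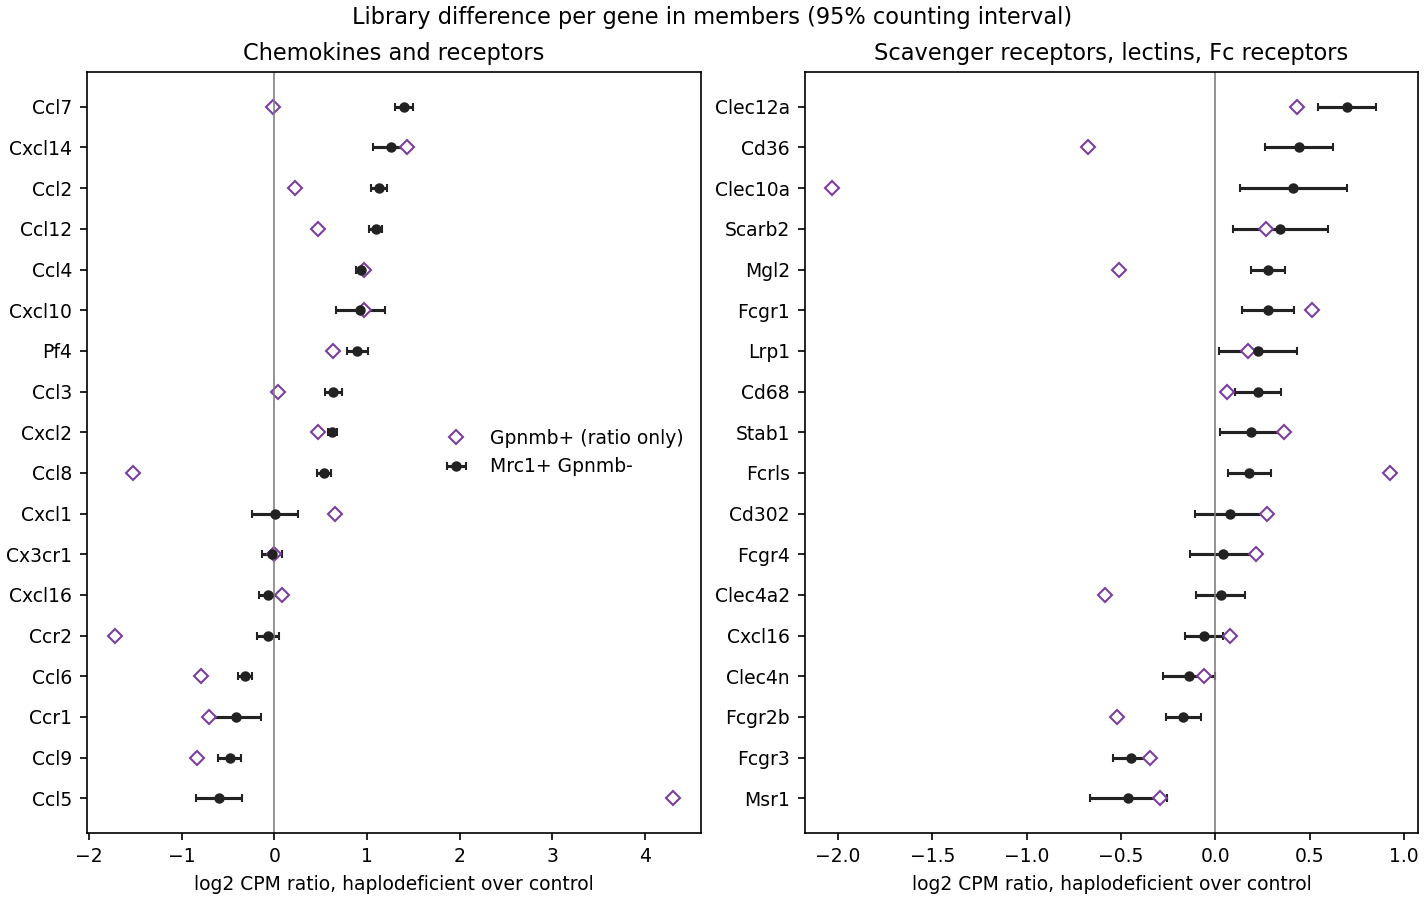
Each row is a gene, and filled points give its log2 CPM ratio of haplodeficient over control in the members with the 95% counting interval; open diamonds give the same ratio in Gpnmb-positive cells without an interval. Ccl7, Cxcl14, Ccl2 and Ccl12 lie furthest to the right among the chemokines drawn, Ccr2 and Cx3cr1 lie near 0, and none of the scavenger receptors and lectins drawn reaches 1 on this scale; only genes abundant enough for the size rule are drawn.

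Other genes of uptake were compared in the same way. None of 9 abundant genes for the uptake of apoptotic cells passed the size rule, and their median log2 ratio was -0.15. A counting interval below 1 was seen for 6 of these 9, against 27.5% of all genes, and none had an interval above 1, against 28.7% of all genes. Mertk, a receptor for phosphatidylserine bridged by Gas6, was at 141 and 105 CPM, which gave a ratio of 0.749 (0.66 to 0.85). Elmo1, an adaptor for engulfment, was at 221 and 160 CPM, which gave a ratio of 0.723 (0.653 to 0.8), and the integrin subunit Itgb5 at 177 and 133 CPM, which gave a ratio of 0.752 (0.672 to 0.842). None of 8 genes of iron and haem handling passed, with haem oxygenase Hmox1 at 127 and 183 CPM, which gave a ratio of 1.43 (1.28 to 1.61).

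Among 8 abundant complement genes, 1 passed as higher and 1 as lower, against 0.581% higher and 1.23% lower over all genes. C4b, a component of the classical pathway, was at 31.9 and 76 CPM, which gave a ratio of 2.38 (1.92 to 2.97). C3, the central component, was at 149 and 70.4 CPM, but 1% of members held 79.8% of its UMIs in control, and without the 1% of members with most C3 its log2 ratio was 0.21 in place of -1.03. Of 7 abundant interferon-response genes, Irf7, the transcription factor that amplifies the response, and Bst2, an antiviral tether, passed as higher, and the median log2 ratio was 0.66. Over all genes 0.581% passed as higher. The interferon list summed to 1624 and 2663 CPM in members and to 344 and 1630 CPM in free RNA. Irf7 was at 44 and 98.1 CPM, with a log2 ratio of 1.07 that was 0.94 with free RNA subtracted, and Bst2 at 199 and 470 CPM, which gave a ratio of 2.36 (2.17 to 2.57). Bst2 was also higher in Gpnmb-positive cells, at 163 and 492 CPM. None of 14 genes of the stress of cell dissociation passed the size rule, although Atf3 was at 1048 and 1922 CPM and Jun at 1206 and 1761 CPM. Their part in the chemokine levels was not tested.

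Genes outside these lists that differed most between libraries fell into 2 kinds, those found across many members and those carried by a few. Gdpd3, a phospholipase of the lysophospholipid pathway, was at 21 CPM (16.4 to 26.4) in control and 136 CPM (126 to 147) in haplodeficient members, and in 4.8% and 25% of thinned members. It was also higher in the haplodeficient Gpnmb-positive cells, at 30.1 and 166 CPM, and it was in 0.543% and 4.16% of thick ascending limb cells. Rpl29, a ribosomal protein gene with near-identical copies in the genome that make its count uncertain, was at 182 and 623 CPM, with 186 and 608 CPM in Gpnmb-positive cells. Ifi27l2a, an interferon-induced gene, was at 737 and 1483 CPM, with a ratio of 2.01 (1.92 to 2.11), at the edge of the size rule, and its log2 ratio was as low as 0.83 among the alternatives.

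Retnla, which encodes the resistin-like molecule RELMalpha of macrophages exposed to interleukin 4 or 13, was at 112 CPM (101 to 123) and 988 CPM (960 to 1017), a ratio of 8.84 (7.97 to 9.83). Thinned members with Retnla were 2.71% (1.45 to 4.6%) in the control library and 10.6% (8.3 to 13.2%) in the haplodeficient library. The 5% of members with most Retnla held 100% of its UMIs in control and 89.2% in haplodeficient, with up to 92 and 387 UMIs in 1 cell. In Gpnmb-positive cells it was at 17.8 and 25.6 CPM, which gave a ratio of 1.44 (0.969 to 2.19). By Mrc1 count in haplodeficient C1q-high cells without Gpnmb, Retnla was at 535, 703, 1300 and 398 CPM from 0 to 3 or more UMIs after thinning, and in control at 35, 22.6, 120 and 202 CPM. Its lowest level was thus at the highest Mrc1 in haplodeficient, and its highest level was there in control.

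Other calls rested on single members. Of 477 haplodeficient UMIs of S100a9, a neutrophil gene, 357 were in 1 member. For Tagln, a smooth muscle gene, 545 of 1213 were in 1 member, and for Fabp5, a fatty acid carrier, 991 of 1996. Without the 1% of members with most UMIs of the gene, the log2 ratio was 0.37 for Tagln in place of 2.64 and 0.18 for Fabp5 in place of 1.62. The 7 genes of the neutrophil list summed to 69.0 CPM in control and 263 CPM in haplodeficient members, with 56.4 and 1435 CPM in free RNA.

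Among the 10 genes furthest lower in haplodeficient members were Kap, Klk1, Akr1c21, Miox, S100g, Gpx3, Cltrn, Acsm2 and Keg1, which are genes of kidney tubules. Kap, the androgen-regulated protein of proximal tubule, was at 889 CPM in control and 59.1 CPM in haplodeficient members, and at 11105 and 547 CPM in free RNA. Free RNA was estimated at 22.3% of control and 17.3% of haplodeficient member UMIs. These are medians, over 28 and 43 markers of other cell classes, of UMIs found over UMIs expected from pure free RNA. Markers found above that expectation were left out. At those shares the expected free Kap exceeded the Kap found in members of both libraries. The shares were thus too high for Kap, and subtraction left 0 UMIs of it on each side. The log2 ratio of 0 after subtraction, in place of -3.80, was thus fixed by the method and measures no difference. The 8 genes of the proximal tubule list summed to 1493 and 243 CPM in members and to 14462 and 1067 CPM in free RNA, with no gene of that list at 0 in either library. Of the 38 genes that passed as lower, 32 were also lower in the free RNA of the haplodeficient library. For 36 of them more than 40% of the control UMIs were in 1% of members. A ratio interval below 1 was also seen for 34 of them in Gpnmb-positive cells and for 22 in cells with neither Mrc1 nor Gpnmb. Of the 18 genes that passed as higher, 17 were also higher in the free RNA of the haplodeficient library. For 6 of these 18, more than 40% of the haplodeficient UMIs were in 1% of members. A ratio interval above 1 was seen for 13 of the 18 in Gpnmb-positive cells and for 15 in cells with neither gene. The matching shares over all genes are not given, so these counts are a description, and the cause was not tested. Of 1942 control UMIs of Klk1, 937 were in 1 member. Without the 1% of members with most Klk1 its log2 ratio was -0.92 in place of -3.76.

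**Figure D4:**
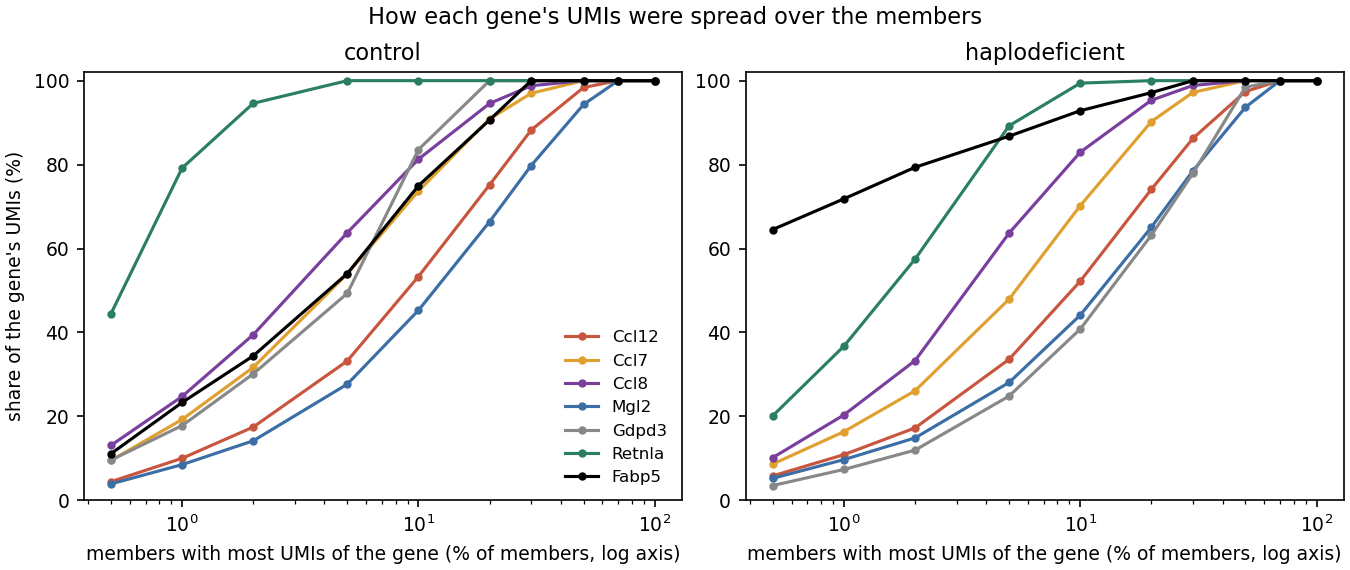
Lines give the share of a gene's UMIs (y axis, percent) held by the members with most UMIs of it (x axis, percent of members, log axis), control on the left and haplodeficient on the right. Ccl12 and Mgl2 are spread over many members, Ccl8 has 63.8% and 63.7% of its UMIs in the top 5%, and Retnla has 100% and 89.2%; Fabp5 starts high only in the haplodeficient library, where 1 cell holds 991 of 1996 UMIs.

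Set against Gpnmb-positive C1q-high cells of the same library, the members had higher Ccl12, Ccl7, Mgl2 and MHC class II genes and lower genes of the lipid-associated list. Of 2729 genes abundant enough in both libraries, 90 (3.3%) passed the size rule as higher and 79 (2.89%) as lower in both. Gpnmb was used to part the sets, and Mrc1 in choosing the members, so this is a description. Gpnmb-positive cells were also deeper, with medians of 9702 and 12466 UMIs, and 87 of 141 control and 118 of 329 haplodeficient cells had Mrc1.

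The 10 genes furthest higher in both libraries were Mgl2, Clec4b1, Ccl12, Retnla, Clec4a1, St3gal6, Plbd1, H2-Eb1, Ccl7 and Ccr2. Mgl2 was 13.2-fold (10.2 to 17.3) higher in control and 22.8-fold (19 to 27.6) in haplodeficient, and Ccl12 6.32-fold (5.44 to 7.38) and 9.74-fold (9.01 to 10.5). Ccl7 was 4.12-fold and 11.0-fold higher. Of 8 CC chemokines abundant enough in both libraries, 3 passed as higher and 0 as lower, against 3.3% higher over all genes, and the other 5 did not pass in both. Ccl8, a marker by which such cells are known, was 1.94-fold higher in control and 8.12-fold in haplodeficient and so passed in 1 library only. Clec4b1 and Clec4a1, C-type lectins of myeloid cells, were at 110 and 143 CPM against 11.2 and 10.2 CPM, and at 118 and 99.2 CPM against 19.5 and 11 CPM. Of 9 abundant genes of MHC class II presentation, 8 passed as higher and 0 as lower, with H2-Ab1 at 6066 and 6257 CPM against 1605 and 777 CPM. The inflammatory cytokine Il1b was at 1422 and 1475 CPM against 487 and 509 CPM.

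Of 9 lectins and Fc receptors 3 passed as higher and 0 as lower, and of 9 scavenger receptors 3 passed as lower and 0 as higher, so most genes of both lists did not pass. Cd68 was at 254 and 297 CPM in members against 667 and 695 CPM in Gpnmb-positive cells, Lrp1 at 90 and 105 against 268 and 302 CPM, and Olr1, which was abundant enough only through its level in Gpnmb-positive cells, at 17 and 42.6 against 104 and 130 CPM. Cd36 was at 112 and 152 against 342 and 214 CPM, which passed in control only. Stab1 was at 144 and 164 against 125 and 162 CPM. Of 18 lipid-associated genes, 12 passed as lower and 0 as higher. Only 15 of the 18 were abundant enough in the members alone. The rest entered through their level in Gpnmb-positive cells, so they could pass only as lower. Fabp5 was at 132 and 417 against 2850 and 3310 CPM, and Trem2, the lipid-sensing receptor that defines that programme, at 306 and 305 against 1156 and 1510 CPM. Ctsd, a lysosomal protease, was at 747 and 672 against 5001 and 6188 CPM, and Acp5, a lysosomal phosphatase, at 73.6 and 95.8 against 404 and 438 CPM.

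**Figure D5:**
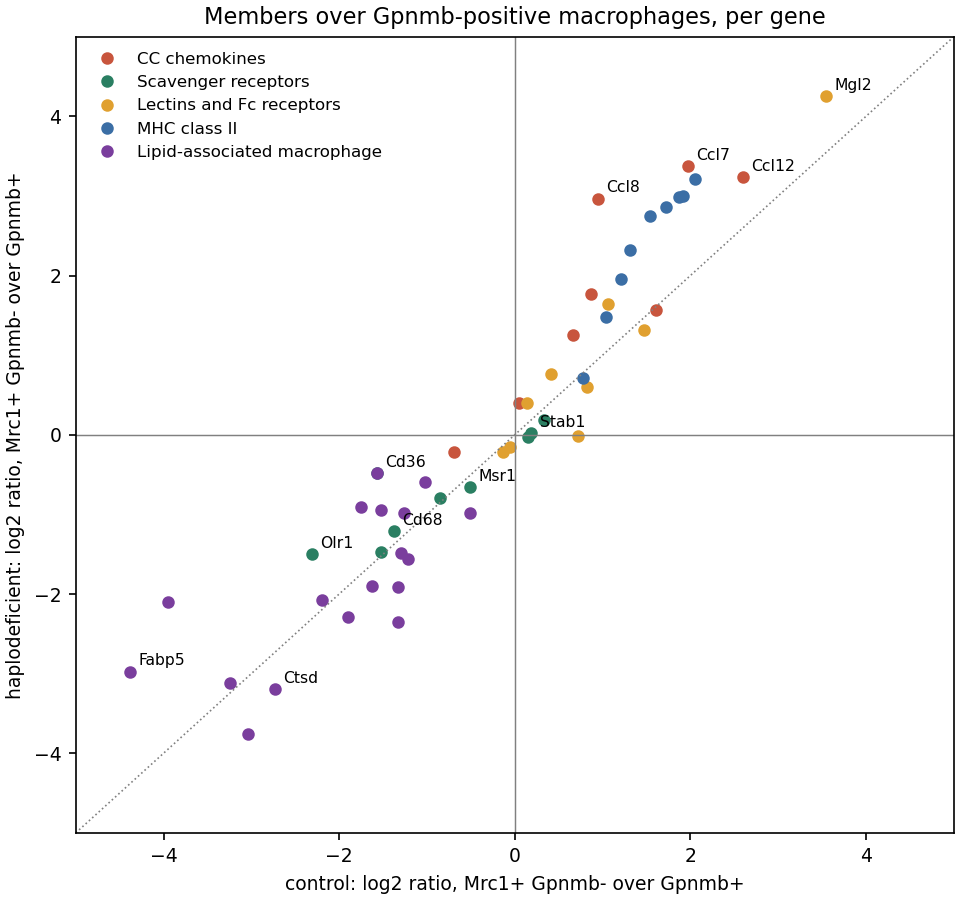
Each point is a gene, placed by its log2 ratio of members over Gpnmb-positive cells in control (x axis) and haplodeficient (y axis), coloured by list; the dotted line marks equal ratios. Ccl7, Ccl8, Ccl12, Mgl2 and MHC class II genes lie in the upper right, Fabp5 and Ctsd in the lower left, and Ccl8 lies well above the line.

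The genes whose UMIs per member went most with Ccl8 were Selenop, Fcrls, Itm2b, Apoe, F13a1, Ninj1, Hmox1, Ftl1, Ctsb and Pf4, by the smaller of the Pearson r of the 2 libraries over 2806 candidate genes. The r of Selenop was 0.36 over 479 control and 0.38 over 633 haplodeficient members, each thinned to 2000 UMIs, and that of F13a1, coagulation factor XIII, was 0.28 and 0.38. With Ccl12 the r of Ccl8 was 0.08 and 0.15, with Ccl2 0.05 and 0.08, and with Ccr2 -0.19 and -0.16. Cells of a library share its depth and free RNA, the values are weak, and they are given as a description.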

How the data were processed

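Single-cell RNA was measured in 2 libraries, 1 per group, both in batch 1, with droplet-based 3′-end chemistry, per the labels. The authors deposited unfiltered raw counts (UMIs for each gene in each barcode) from Cell Ranger 4, per the file headers, on mm10, per the submitters' processing notes; the annotation was not given in the sources used here. Hashtags were not used here. Barcodes with at least 500 UMIs, 200 genes and at most 50% mitochondrial UMIs were kept. No doublets were removed in the main analysis; leaving out the highest Scrublet scores (scanpy 1.11.5) was an alternative.

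Members and gene lists were chosen with earlier results of these data known. UMIs were summed over cells and scaled to CPM. Intervals are exact Poisson for CPM, Clopper-Pearson for shares and conditional binomial for ratios, all at 95%. Mitochondrial genes and the genes of the choice were not put to the size rule. For shares of cells with a UMI, cells were thinned to 2000 UMIs, which left out 10 control and 34 haplodeficient members. Background cells were those with at least 5 UMIs of Slc12a1, 943 and 964. Free RNA was profiled in barcodes of up to 100 UMIs. The genes named were list genes with at least 30 UMIs, the 10 furthest each way in each comparison and the 10 most like Ccl8; a few that these rules would name are not reported here. Of 292 list genes 290 were analysed. Scripts were tested on simulated data. Promoters came from RefSeq on GRCm38.p6 and positions from GENCODE on GRCm38. Python 3.11.15, numpy 2.4.6, scipy 1.17.1 and pandas 2.3.3 were used.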

Additional observations from a re-analysis of the deposited data

Results flagged for a closer look

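For 5 genes of the chemokine, scavenger and lectin lists, the ratio of haplodeficient over control had its counting interval on opposite sides of 1 in the members and in Gpnmb-positive macrophages. With 1 library per group, these differences between the 2 kinds of macrophage were not tested. Ccl8 had a ratio of 1.45 in members and 0.348 in Gpnmb-positive cells, Mgl2 1.21 and 0.701, and Clec10a 1.33 and 0.245, the latter on 22 control and 15 haplodeficient UMIs in Gpnmb-positive cells. Cd36 had 1.36 and 0.627, and its log2 ratio in members was as low as 0.04 among the alternatives. Ccl5 had 0.66 and 19.7, and its direction in members changed in 4 of 12 alternatives.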

How the results depend on the processing

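No paired analysis was possible because each group had 1 library and the result comes from no test. The share of members moved to 4.13% and 5.11% with at least 2 UMIs of Mrc1, to 4.39% and 5.52% when each cell was thinned to 2000 UMIs before the choice, and to 6.45% in control at a 25% mitochondrial limit. The count of genes lower in haplodeficient members was 38 and became 66 with at least 2 UMIs of Mrc1, 14 with thinning before the choice, 25 with UMIs summed after thinning, 88 without the highest Scrublet scores, and 24 without members over 1% other-class UMIs, the last chosen after seeing the data. The genes themselves changed too. Of the 56 genes called between libraries, 16 were called again in the same direction with thinning before the choice and 24 with UMIs summed after thinning. There were 27 with free RNA subtracted, 27 without the 1% of members with most UMIs of each gene, and 37 to 56 in the other settings. The share of free RNA used for the subtraction was too high for Kap. Eligibility at a mean of 10 CPM gave 129 lower and 45 higher, and 214 higher and 121 lower over Gpnmb-positive cells, since more genes were compared. Thinning before the choice gave 136 higher over Gpnmb-positive cells. The median log2 ratio of CC chemokines, 0.63, was 0.53 with thinning before the choice and with free RNA subtracted, and 0.82 with UMIs summed after thinning. The log2 ratio of C3, -1.03, was 0.25 with thinning before the choice, 0.084 with UMIs summed after thinning and 0.21 without the 1% of members with most C3, and that of Atp6v1g3 was -0.70 without the highest Scrublet scores. Apart from C3, where the third setting shows that few members carry it, the cause of these moves was not tested. Summed UMIs limit what can be read of genes such as Cd163, Marco and Ccl17.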
